A study of Mus musculus with 8 samples.

Results

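The genes of the type 2 cytokines (Il4, Il5 and Il13), the growth factor genes Il3 and Csf2 and 4 genes beside them on mouse chromosome 11 were followed through 8 RNA sequencing libraries of CD4+ T cells. The members were chosen by name: 5 cytokine genes of the cluster (Il4, Il5, Il13, Il3 and Csf2) and 4 flanking genes that encode no cytokine (Kif3a, Rad50, Slc22a5 and Slc22a4), which makes 9 of the 53657 genes that could be joined across all libraries. Control cells carried floxed Rora alleles (genotype Rora_fl/fl), and knockout cells carried the same alleles with a Cre recombinase under Cd4 control (genotype Cd4_cre Rora_fl/fl). Rora encodes RORα, a nuclear receptor of Th17 cells and innate lymphoid cells. The Cre acts in cells with an active Cd4 promoter, which T cells share before they divide into helper subsets. How completely the Rora alleles were deleted was not measured.

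In the colitis arm, naive CD4+ T cells of either genotype had spent 6 weeks in Tcrbd-/- recipients, and CD4+ T cells were then taken from the colon, with 2 libraries per genotype. These recipients lack T cells of their own but keep their B cells, myeloid cells, innate lymphoid cells, mast cells, eosinophils and basophils. The culture arm started from naive CD4+ T cells activated by antibodies to CD3 and CD28, which then grew over 4 days in 1 of 2 cytokine mixes. TGF-β with IL-6 is called the TGF-β mix below, and IL-6 with IL-1β and IL-23 the IL-23 mix. Each mix gave 1 control and 1 knockout library. All cells received PMA and ionomycin, drugs that trigger T cell receptor signalling downstream of the receptor, for 2 hours before RNA was extracted, so every level below is a level after restimulation. The ages of the animals, and whether replicate libraries came from separate mice, were not stated, so p-values reflect the spread among the libraries alone, and that spread may be technical.

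Il4, Il5 and Il13 are the defining cytokines of Th2 cells and of group 2 innate lymphoid cells. IL-4 drives Th2 differentiation and class switching in B cells, IL-5 supports eosinophils, and IL-13 acts on epithelium and goblet cells. Il3 and Csf2 encode IL-3, a growth factor for mast cells and basophils, and GM-CSF, which acts on macrophages, neutrophils and dendritic cells and is made by inflammatory T helper cells in colitis. In Th2 cells, GATA3, STAT6, NFAT and AP-1 factors act on Il4, Il5 and Il13 through shared elements, among them a locus control region within Rad50.

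On build mm10 (GENCODE M21), the 9 genes spanned 700 kb, from the start of Kif3a (chr11:53567379-53601967, plus strand) to the end of Il3 (chr11:54265303-54267277, minus strand). Il4 (chr11:53602982-53618669, minus strand) lay 1.01 kb from the end of Kif3a, with the 3′ ends of both genes facing each other, and 12.7 kb from Il13 (chr11:53631324-53634702, minus strand). Rad50 (chr11:53649519-53707319, minus strand) lay 14.8 kb beyond Il13 and 13.5 kb before Il5 (chr11:53720794-53725106, plus strand), so that a gene for a DNA repair protein sits among the type 2 cytokine genes. Slc22a5 (chr11:53864542-53891660) and Slc22a4 (chr11:53983123-54028090), both on the minus strand, lay between Il5 and Csf2, which are 522 kb apart. Csf2 (chr11:54247271-54249667, minus strand) was 15.6 kb from Il3. Antisense genes overlap Il5 (Gm12214, at 0 counts in every library) and Csf2 (Gm12223, at 12 to 26 counts in the colon and 0 to 4 in culture). The strand setting of the counting was not stated, so reads of such pairs cannot be told apart.

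The promoter sequences below show how the cytokine genes, which moved apart in the libraries, differ in the letters before their start sites, with Kif3a as the flanking gene next to Il4. They are the 250 bases before the start site in the direction of transcription, from RefSeq on GRCm38.p6, where 8 of the 9 members matched. Rad50 was not among them. The windows are chr11:53618666-53618915 for Il4, chr11:53634703-53634952 for Il13, chr11:53720544-53720793 for Il5, chr11:54249900-54250149 for Csf2, chr11:54267280-54267529 for Il3 and chr11:53567119-53567368 for Kif3a. The RefSeq start site of Csf2 was 232 bases from the GENCODE one. Capitals mark matches, on either strand, to AGATAA (a motif of GATA factors), its variant TGATAA, the NFAT motif GGAAA, the AP-1 motif TGANTCA, the ROR receptor motif AGGTCA, the MAF motif TGCTGA and the palindromic STAT6 motif.
Il4: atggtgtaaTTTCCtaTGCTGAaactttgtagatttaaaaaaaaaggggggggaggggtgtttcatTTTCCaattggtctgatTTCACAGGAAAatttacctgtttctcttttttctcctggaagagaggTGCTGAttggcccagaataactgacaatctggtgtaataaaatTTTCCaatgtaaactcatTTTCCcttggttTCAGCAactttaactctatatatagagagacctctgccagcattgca
Il13: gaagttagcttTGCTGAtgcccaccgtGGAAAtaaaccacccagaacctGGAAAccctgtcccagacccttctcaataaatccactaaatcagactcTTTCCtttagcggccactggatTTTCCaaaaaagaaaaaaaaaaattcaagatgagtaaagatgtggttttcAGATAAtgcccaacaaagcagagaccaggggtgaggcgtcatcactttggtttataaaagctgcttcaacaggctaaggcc
Il5: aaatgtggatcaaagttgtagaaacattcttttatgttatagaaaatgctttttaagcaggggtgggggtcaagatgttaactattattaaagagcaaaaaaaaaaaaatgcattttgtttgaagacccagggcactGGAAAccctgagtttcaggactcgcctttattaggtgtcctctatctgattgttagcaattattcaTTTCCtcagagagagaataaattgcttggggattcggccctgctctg
Csf2: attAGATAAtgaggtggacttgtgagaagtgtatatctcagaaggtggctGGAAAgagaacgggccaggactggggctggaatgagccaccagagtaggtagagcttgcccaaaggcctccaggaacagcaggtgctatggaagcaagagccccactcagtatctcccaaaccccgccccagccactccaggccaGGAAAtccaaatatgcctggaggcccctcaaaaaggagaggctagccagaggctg
Il3: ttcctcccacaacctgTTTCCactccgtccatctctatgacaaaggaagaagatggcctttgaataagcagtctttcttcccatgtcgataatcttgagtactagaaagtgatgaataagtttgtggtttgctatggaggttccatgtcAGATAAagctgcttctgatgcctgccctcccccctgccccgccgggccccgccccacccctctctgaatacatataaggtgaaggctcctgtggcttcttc
Kif3a: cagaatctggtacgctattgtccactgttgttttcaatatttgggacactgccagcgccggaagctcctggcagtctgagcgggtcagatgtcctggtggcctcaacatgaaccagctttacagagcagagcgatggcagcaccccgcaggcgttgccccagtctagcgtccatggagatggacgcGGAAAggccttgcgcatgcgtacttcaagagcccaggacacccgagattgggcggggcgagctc
The Il4 window held 5 matches to GGAAA, 3 to TGCTGA and 1 to the STAT6 motif, which overlaps a GGAAA. RefSeq holds another Il4 start site 1331 bases from the GENCODE one, and its window (chr11:53617339-53617588) had no match to any motif and 1 CpG. The Il13 window held 4 matches to GGAAA, 1 to TGCTGA and 1 to AGATAA, while Il5 had 2 to GGAAA. Other forms of the GATA motif, such as AGATAG, were not searched or marked, and the Il5 window holds AGATAG on the other strand (ctatct). A window without a marked GATA match is thus not shown to lack a GATA motif. Csf2 had 1 match to AGATAA and 2 to GGAAA, and Il3 had 1 to each. The Kif3a window had 1 match to GGAAA, those of Slc22a4 and Slc22a5 had none to any motif, and the variant GATA motif, the AP-1 motif and the ROR motif were found in no member's window. Among 32851 promoter windows of the same length, AGATAA was present in 9.99%, TGATAA in 7.94%, GGAAA in 55.6%, TGANTCA in 6.75%, AGGTCA in 14%, the STAT6 motif in 5.85% and TGCTGA in 16.1%. Matches are a description of letters only. The CpG content separated the classes: the cytokine windows held 0 (Il4), 2 (Il5), 3 (Il13), 5 (Il3) and 2 (Csf2) CpG, against 15 for Kif3a, 26 for Slc22a4 and 30 for Slc22a5. Over all promoter windows the median was 6, with 49.6% at 5 or fewer and 27.3% at 15 or more.

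Library totals ran from 13176752 to 15922696 counts. Rora itself, which checks the labels, stood at 3104 and 4067 counts in the control colon libraries and 1958 and 2305 in the knockout ones, at 7881 (control) and 3020 (knockout) in the TGF-β mix, and at 2307 and 906 in the IL-23 mix. The colon knockout libraries averaged 51.5% of the control level. Levels below are in CPM (counts relative to TMM-scaled library size), on one scale over the 8 libraries, and levels are compared between genes only per kilobase of exon.

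In the knockout libraries of the colon, RNA of Il4, Il5, Il13 and Il3 was higher than in the control libraries. The fitted rise was between 4.06-fold for Il13 and 38.9-fold for Il3, while the mean of Csf2, 15.6 kb from Il3, was 84.5% of its control level. Markers of host cells were also counted in these libraries, and their part in the rise was not tested. Of the 5 cytokine genes, 4 rose and 1 (Csf2) fell, and of the 4 flanking genes 2 rose (Rad50 and Kif3a) and 2 did not pass the test. The background for these counts is wide, since 39.5% of the 13101 genes tested passed in the colon (19.6% higher and 19.9% lower; edgeR quasi-likelihood test, Benjamini-Hochberg adjusted p under 0.05). The median log2 fold change was 2.91 over the 5 cytokine genes and 0.40 over the flanking genes, against 0.01 over all genes tested. Scaling by library totals added 0.19 to the log2 changes at the median and moved the share of higher calls among all calls from 49.6% to 77.2%, and scaling to 14 conventional T cell markers added 0.31 and moved it to 88.2%.

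Il4 was counted at 458 and 430 reads in the control colon libraries (40.5 and 34.5 CPM) and at 5730 and 7216 in the knockout ones (429 and 510 CPM). The groups lay far apart, and the lower knockout library was above both control libraries. The log2 fold change was 3.66 ± 0.12 (SE; edgeR adjusted p = 7.1e-09), place 74 from the top of all genes tested.

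Il5 had 341 and 409 counts in control (30.2 and 32.9 CPM) and 2964 and 3512 in knockout libraries (222 and 248 CPM), again with no overlap. Its log2 fold change was 2.91 ± 0.10 (edgeR adjusted p = 7.1e-09).

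Il13 was the most abundant of the 5 in the knockout, with 48031 and 49241 counts (3594 and 3479 CPM) against 9259 and 11734 in the control libraries (819 and 942 CPM). The knockout libraries were close to each other and well above both controls. The log2 fold change was 2.02 ± 0.08 (edgeR adjusted p = 4.5e-08), the smallest rise among the 4 genes and from the highest base.

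Il3, the growth factor gene for mast cells and basophils, had 72 and 77 counts in the control colon libraries (6.37 and 6.18 CPM) and 3112 and 3551 in the knockout ones (233 and 251 CPM). It was thus near the low end of the cluster in control cells and at the level of Il4 per kilobase in knockout cells. Its log2 fold change was 5.28 ± 0.11 (edgeR adjusted p = 1.8e-10), place 31 from the top.

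Csf2, the GM-CSF gene, had 6338 and 6418 counts in control (561 and 516 CPM) and 5957 and 6565 in knockout libraries (446 and 464 CPM). Both knockout levels were below both control levels, by 0.23 ± 0.08 on the log2 scale (edgeR adjusted p = 0.046; log2 fold change -0.23). The call was lost with library totals (-0.04, adjusted p = 0.75), without control replicate 1 (-0.15, 0.3) and without knockout replicate 1 (-0.22, 0.093), and the sign turned with T cell marker scaling (0.09, 0.39). Per 1000 counts of the 14 T cell markers, Csf2 stood at 45.4 and 41.4 in control and 45 and 47.2 in knockout libraries, which overlap, while Il3 stood at 0.515 and 0.497 against 23.5 and 25.5.

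**Figure D1:**
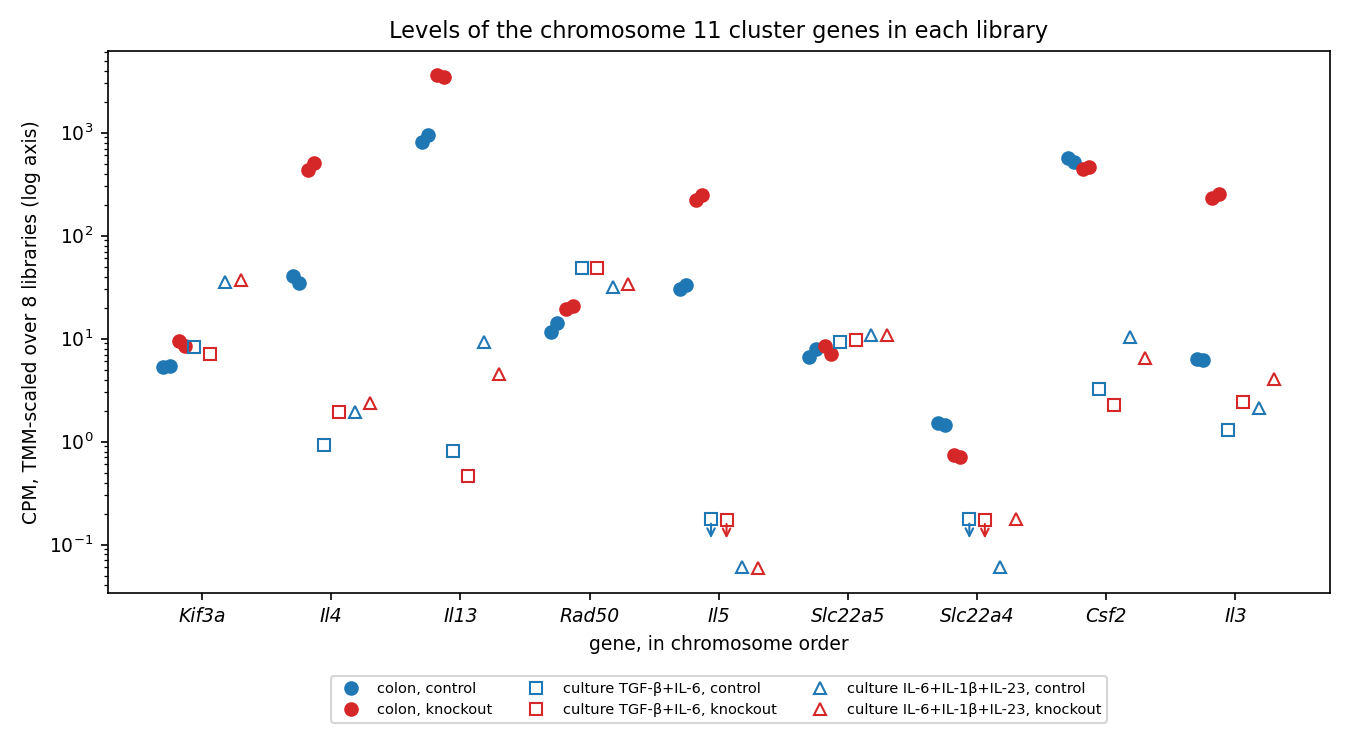
Level of each of the 9 genes in each of the 8 libraries, in CPM on a log axis, with genes in chromosome order; filled circles are colon libraries, open squares the TGF-β mix, open triangles the IL-23 mix, blue control and red knockout, and an arrow marks a library at 0 counts drawn at the CPM of 3 counts. The red circles of Il4, Il13, Il5 and Il3 lie above the blue ones, those of Csf2 (446 and 464 CPM) just below (561 and 516 CPM), and every culture library lies below every colon library for the 5 cytokine genes and above it for Rad50. The gap is smallest for Il3, at 4.02 CPM in the knockout library of the IL-23 mix against 6.37 and 6.18 CPM in control colon libraries, with overlapping counting intervals.

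Per kilobase of exon, control colon cells had Il13 at 731 ± 72.3 and Csf2 at 673 ± 40 CPM (SD, n = 2 libraries), which did not differ beyond their spread, followed by Il4 at 30.6 ± 3.44, Il5 at 20.5 ± 1.23 and Il3 at 9.98 ± 0.211. Knockout colon cells had Il13 at 2934 ± 67.2, Csf2 at 569 ± 16.1, Il3 at 385 ± 20.3, Il4 at 383 ± 46.8 and Il5 at 153 ± 12.2 CPM per kilobase. Il3 thus moved from the last place to one beside Il4, from which it did not differ beyond the spread, and Csf2 went from a level that overlapped that of Il13 to a lower one. Of the summed cytokine level per kilobase, Csf2 made up 48.6% and 43.4% in control and 12.7% and 13.1% in knockout libraries. Il3 went from 0.702% and 0.662% to 8.41% and 8.98%. In all, the 5 genes took 0.126% and 0.128% of a control colon library's counts and 0.480% and 0.488% of a knockout one's.

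Ratios within a library do not depend on the scaling. Il3 had 1.14 and 1.20 counts per 100 Csf2 counts in the control colon libraries and 52.2 and 54.1 in the knockout libraries, a 45.5-fold difference of the means on the log scale. Il4 per 100 Il13 counts went from 4.95 and 3.66 to 11.9 and 14.7 (3.11-fold), Il5 per 100 Il13 counts from 3.68 and 3.49 to 6.17 and 7.13 (1.85-fold), and Il13 per 100 Csf2 counts from 146 and 183 to 806 and 750 (4.76-fold). The groups did not overlap in any of these ratios, and the share of gene pairs without overlap over all genes was not counted. With 2 libraries against 2, an exact two-sided permutation test gave p = 0.333 for each. That is the smallest value this design allows, so the test cannot decide whether the genotypes differ. Relative to Il13, Il4 and Il5 were higher in both knockout libraries than in both controls, and of these ratios that of the neighbours Il3 and Csf2 differed most.

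Of the flanking genes, Rad50 and Kif3a rose by less than any of the 4 cytokine genes that rose. Rad50, a subunit of the MRN complex of DNA break repair, had 131 and 176 counts in control colon libraries (11.6 and 14.1 CPM) and 261 and 296 in knockout ones (19.5 and 20.9 CPM). It rose by a log2 fold change of 0.67 ± 0.14 (edgeR adjusted p = 0.0027). Kif3a, a motor subunit of kinesin-2 that builds cilia, had 60 and 67 counts in control (5.31 and 5.38 CPM) and 127 and 119 in knockout libraries (9.50 and 8.41 CPM). It rose by 0.76 ± 0.18 (edgeR adjusted p = 0.0054). Rad50 and Kif3a held places 1718 and 1427 from the top of all genes tested, against place 74 for Il4, 1.01 kb from Kif3a.

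Slc22a4 and Slc22a5 encode the transporters OCTN1 and OCTN2 for ergothioneine and carnitine. Slc22a5 had 74 and 98 counts in control (6.55 and 7.87 CPM) and 113 and 101 in knockout colon libraries (8.46 and 7.14 CPM), which overlap, with a log2 fold change of 0.12 ± 0.18 (edgeR adjusted p = 0.62). Slc22a4 had 17 and 18 counts in control and 10 in each knockout library (1.5 and 1.45 against 0.748 and 0.707 CPM). Its groups did not overlap, yet at so few counts the log2 fold change of -1 ± 0.40 did not pass (edgeR adjusted p = 0.069).

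Of 15 further genes listed around the cluster, 9 were tested in the colon, where 4 rose, 1 fell and 4 did not pass (median log2 fold change 0.17). Over all genes tested in the colon, 19.6% rose and 19.9% fell, which is the background for every list counted there below. Rapgef6, which encodes an exchange factor for Rap proteins and lies beyond Il3, rose by 0.74 ± 0.08 (edgeR adjusted p = 6e-05), and Irf1, the gene of an interferon-induced transcription factor between Il5 and Slc22a5, rose by 0.59 ± 0.08 (0.00013). Fnip1, whose protein binds folliculin, rose by 0.63 ± 0.10 (0.00057), and Uqcrq, a subunit gene of respiratory complex III, fell by 0.54 ± 0.09 on the log2 scale (0.00081), a call lost under T cell marker scaling (-0.23, 0.073). Among the flanking and neighbouring genes tested, P4ha2 had the highest log2 fold change, 0.77 ± 0.28 (edgeR adjusted p = 0.047), below that of Il4, Il13, Il5 and Il3.

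**Figure D2:**
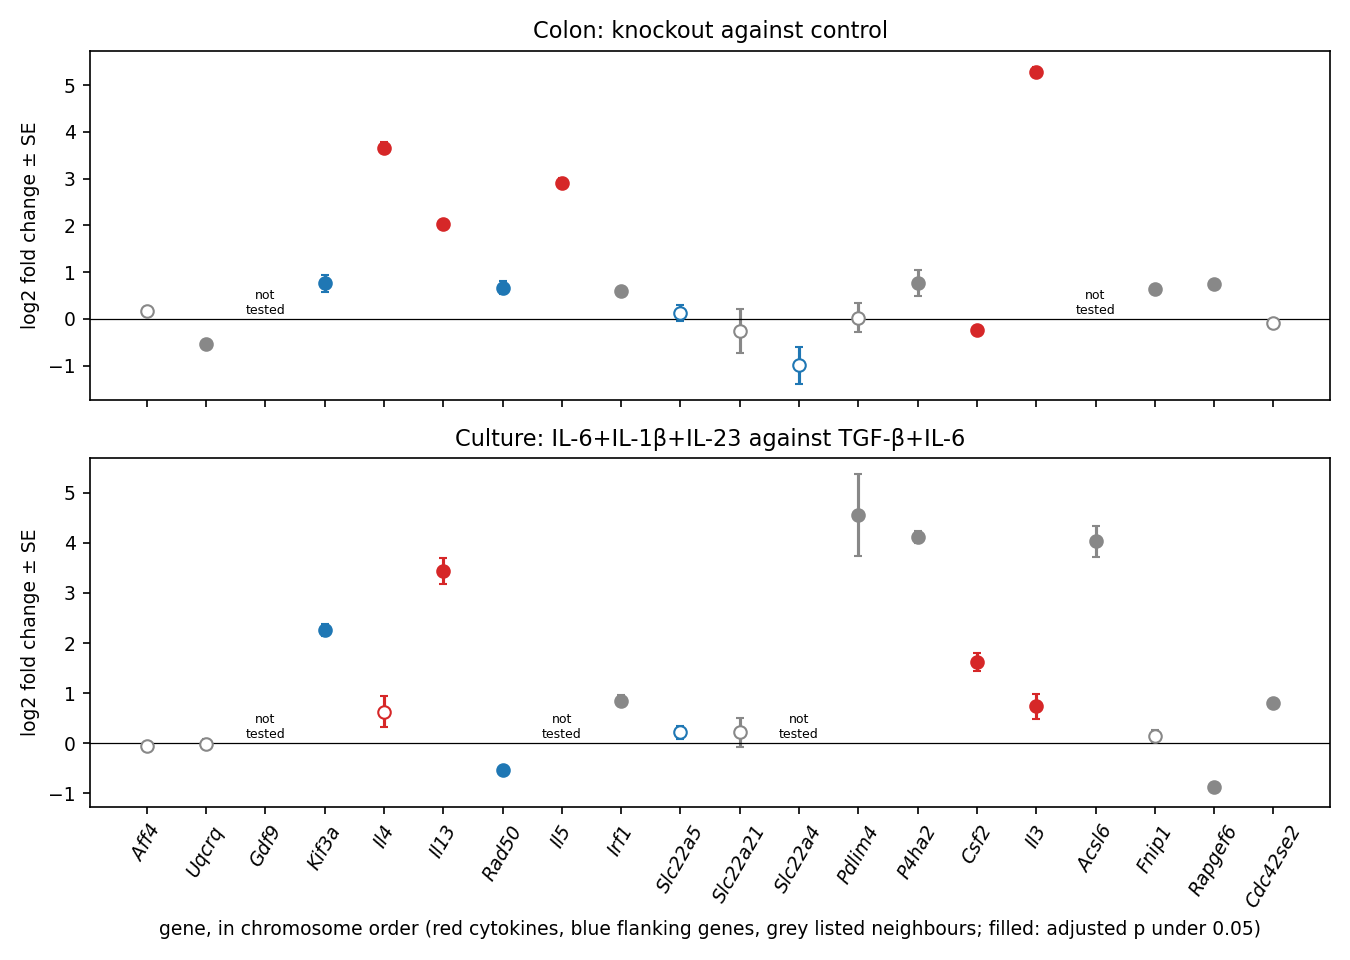
Log2 fold change with its SE for each gene of the cluster and its surroundings in chromosome order, for knockout against control colon libraries (upper panel) and for the IL-23 mix against the TGF-β mix (lower panel); red are cytokine genes, blue flanking genes, grey listed neighbours, and filled points passed the edgeR test. In the colon Il4 (3.66), Il13 (2.02), Il5 (2.91) and Il3 (5.28) stand above genes between them, and in culture the neighbours Pdlim4, P4ha2 and Acsl6 are as high as Il13 (3.43) or higher. Pdlim4 rests on few counts, 0 and 1 in the TGF-β mix and 16 and 12 in the IL-23 mix (control and knockout).

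Receptor genes for these cytokines were mixed. Of 9 listed, 7 were tested in the colon, where 4 rose, 2 fell and 1 did not pass (median 0.71). Csf2rb2, which encodes the mouse-specific β chain of the IL-3 receptor, rose from 22 and 26 to 67 and 72 counts (1.33 ± 0.24, edgeR adjusted p = 0.001). Csf2rb2 and Csf2rb, the β chain shared by the IL-3, IL-5 and GM-CSF receptors, are near-identical copies, so counts could be split between them. Csf2ra, the α chain for GM-CSF, rose from 38 and 60 to 114 and 91 counts (0.88 ± 0.23, edgeR adjusted p = 0.0095). Il4ra, the chain shared by the IL-4 and IL-13 receptors, fell by 0.28 ± 0.07 on the log2 scale (edgeR adjusted p = 0.011) and Il2rg, the common γ chain, by 0.27 ± 0.08 (0.015). Neither call was kept with library totals (-0.09 and -0.08), and T cell marker scaling turned both signs (0.03 and 0.05). The α chain gene of the IL-5 receptor, Il5ra, had at most 1 count in any library.

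Of 30 genes of transcription factors and chromatin regulators linked to the cluster, all tested in the colon, 7 rose, 14 fell and 9 did not pass (median -0.26). Over all genes tested, 19.6% rose and 19.9% fell. With T cell marker scaling the counts were 12 higher and 4 lower. Gata3, the Th2 regulator, went from 1998 and 2267 counts (177 and 182 CPM) to 4738 and 4901 (354 and 346 CPM), a rise of 0.98 ± 0.08 (edgeR adjusted p = 4.7e-06). Batf, an AP-1 family member needed for Th17 and Th2 programmes, went the other way, from 12659 and 14126 to 6883 and 6814 counts, and fell by 1.16 ± 0.08 on the log2 scale (2e-06). Irf4, a partner of Batf, fell by 0.59 ± 0.07 (0.00013) and Tcf7, the gene of TCF-1, by 0.53 ± 0.08 (0.00027). All 4 kept direction and call with library totals and with T cell marker scaling.

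Other genes expressed by Th2 cells but outside the cluster gave 7 higher, 2 lower and 5 not passing among 14 tested of 17 listed (median 0.52). Il6 rose from 184 and 223 to 819 and 998 counts (1.96 ± 0.11, edgeR adjusted p = 5.7e-07), Il1rl1, the gene of the IL-33 receptor ST2, rose by 0.93 ± 0.08 (8e-06) and Areg, the gene of the growth factor amphiregulin, by 0.69 ± 0.08 (5e-05). Il10 fell by 0.99 ± 0.09 on the log2 scale (1.2e-05).

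Markers of the transferred T cells and of cell types of the host moved in the same libraries. Of 14 conventional T cell markers, 11 fell, 1 rose and 2 did not pass (median log2 fold change -0.32), while with library totals 5 fell, 1 rose and 8 did not pass (median -0.13). On the TMM scale their summed level was 12360 and 12440 CPM in control and 9910 and 9830 CPM in knockout colon libraries. In bulk RNA, fewer cells of a type and less RNA per cell cannot be told apart. Of 12 epithelial markers, 9 were tested and 8 rose (summed 55.1 and 52.6 against 140 and 141 CPM). Of 8 fibroblast markers 7 rose (34.4 and 26.7 against 112 and 101 CPM), of 8 B and plasma cell markers 6 were tested and 5 rose (632 and 639 against 2271 and 2457 CPM), and of 11 macrophage and dendritic cell markers 10 were tested, of which 7 rose and 1 fell (154 and 159 against 260 and 251 CPM). In the IL-23 mix the fibroblast sum was 409 and 373 CPM (Lum 386 and 351). The macrophage and dendritic cell sum was 210 and 192 CPM there (H2-Ab1 178 and 163). These cultures started from naive CD4+ T cells, so neither list can be read as host cells alone. The epithelial sum and the B and plasma cell sum were lower in every culture library than in any colon library.

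Host cells that can themselves make type 2 cytokines were looked at by their own markers. Of 11 mast cell markers, 4 were tested, 3 rose and 1 fell, with a summed level of 236 and 242 CPM in control and 246 and 228 CPM in knockout libraries. Kit made up 216 and 224 CPM of that sum in control and 126 and 110 CPM in knockout libraries, and Hdc, the histamine-forming enzyme gene, 19.5 and 18.4 against 112 and 110 CPM, so that the sum stayed level while its members moved in opposite directions. Mcpt1, a mucosal mast cell protease gene, had 1 count in each control and 59 and 62 in the knockout libraries, Mcpt4 had 0 and 0 against 14 and 16, and Hdc had 220 and 229 against 1499 and 1551. Kit fell by 0.88 ± 0.09 on the log2 scale (edgeR adjusted p = 2.1e-05), Ms4a2, the β chain gene of the IgE receptor, was at 0 in all 8 libraries, and Fcer1a, its α chain gene, had at most 1 count. Of 7 basophil markers, only Cd200r3 was tested and rose, from 3 and 3 to 47 and 66 counts, while Prss34 was at 0 everywhere and Mcpt8 had at most 3 counts. The summed basophil level was 0.619 and 0.643 CPM in control and 4.71 and 5.58 CPM in knockout libraries. Most of that rise was Cd200r3 alone, at 0.265 and 0.241 CPM in control and 3.52 and 4.66 CPM in knockout libraries.

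Eosinophil markers came to 0.973 and 1.53 CPM in control and 2.02 and 2.12 CPM in knockout libraries, with 1 of 9 tested and none called, and Epx, the eosinophil peroxidase gene, at most at 1 count. Markers of innate lymphoid cells, many of which T cells also express (Il1rl1, Areg, Il7r, Id2 and Rora among them), gave 6 higher, 3 lower and 1 not passing of 10 tested (summed 1430 and 1593 against 1268 and 1351 CPM). Rora, the deleted gene, is 1 of the 3 lower. It held 275 and 327 CPM of the sum in control and 146 and 163 CPM in knockout libraries, a fall set by the genotype. The other lower genes were Kit and Id2, and the 6 higher were Il1rl1, Il17rb, Klrg1, Hs3st1, Areg and Ncr1. The part of host cells in the rise of Il4, Il5, Il13 and Il3 was not tested. Scaled to the 14 T cell markers, the log2 fold changes were 3.98 for Il4, 3.23 for Il5, 2.34 for Il13 and 5.60 for Il3.

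In cultured Th17 cells the same genes were near the lower end of what could be counted. In the TGF-β mix, Il4 had 16 counts in the control and 33 in the knockout library (0.934 and 1.92 CPM), Il13 had 14 and 8, Il3 22 and 42, and Csf2 55 and 39. Il5 had 0 counts in both, which allows up to 0.175 CPM in the control and 0.174 CPM in the knockout library (3 counts). In the IL-23 mix, Il4 had 32 and 40 counts, Il13 154 and 77, Il3 35 and 68, Csf2 170 and 110, and Il5 had 1 count in each. The 5 genes together took between 0.000682% and 0.00259% of a culture library, against 0.126% or more in the colon.

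With 1 library per genotype in a mix, knockout and control were set side by side as ratios with a 95% Poisson interval, which covers counting error only. The ratio for Il3 was 1.90 (1.11 to 3.35) in the TGF-β mix and 1.91 (1.25 to 2.95) in the IL-23 mix. For Il4 it was 2.06 (1.10 to 4.00) and 1.23 (0.752 to 2.02), for Il13 0.569 (0.207 to 1.45) and 0.491 (0.368 to 0.649), and for Csf2 0.707 (0.456 to 1.08) and 0.635 (0.495 to 0.812). In both mixes Il3 and Il4 were thus above 1 and Il13 and Csf2 below 1, with intervals that reach across 1 for Il13 and Csf2 in the TGF-β mix and for Il4 in the IL-23 mix. Of genes reaching 5 CPM, 0.234% differed by 2-fold or more between the libraries of the TGF-β mix and 0.266% between those of the IL-23 mix (0.092% lower in the knockout). Il13 in the IL-23 mix was the member among them, just past that fold (log2 ratio -1.01) and just short of it with library totals (-0.99).

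With the 2 mixes treated as repeats for genotype, none of the 7 members tested passed, where 4 of 13983 genes (0.0286%, with 0.0143% higher and 0.0143% lower) did (edgeR quasi-likelihood test; 500 genes had an unadjusted p under 0.05). The log2 fold change was -0.98 ± 0.23 for Il13 (unadjusted p = 0.0027, edgeR adjusted p = 0.65), 0.93 ± 0.25 for Il3 (0.0056, adjusted 0.9), -0.60 ± 0.18 for Csf2 (0.011, adjusted 1) and 0.61 ± 0.30 for Il4 (0.079, adjusted 1). Ordered by log2 fold change alone among all genes tested, Il3 held place 66 from the top and Il13 place 46 from the bottom. Such places favour genes with few counts, and Il3 had 22 to 68 and Il13 8 to 154 counts in culture. The flanking genes stayed near 0, with -0.02 ± 0.11 for Kif3a, 0.05 ± 0.13 for Slc22a5 and 0.04 ± 0.09 for Rad50. A test of the genotype effect between the mixes called 5 of 15836 genes (0.0316%, with 0.0126% higher and 0.0189% lower) and no member, with 0.01 ± 0.50 for Il3, -0.22 ± 0.62 for Il13 and -0.15 ± 0.34 for Csf2 (edgeR adjusted p = 1 for each).

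Within the culture libraries, Il3 per 100 Csf2 counts was 40 (95% interval 23.2 to 66.7) in control and 108 (68 to 171) in knockout cells of the TGF-β mix, and 20.6 (13.9 to 29.8) and 61.8 (45 to 84.4) in the IL-23 mix. The intervals of control and knockout did not overlap in either mix. Il4 per 100 Il13 counts went from 20.8 (13.7 to 30.6) to 51.9 (34.5 to 77.1) in the IL-23 mix, and from 114 (52.3 to 253) to 412 (187 to 1030) in the TGF-β mix, where the intervals overlap. Il13 per 100 Csf2 counts, in contrast to the colon, was 25.5 in control and 20.5 in knockout cells in the TGF-β mix and 90.6 and 70 in the other, with overlapping intervals.

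**Figure D3:**
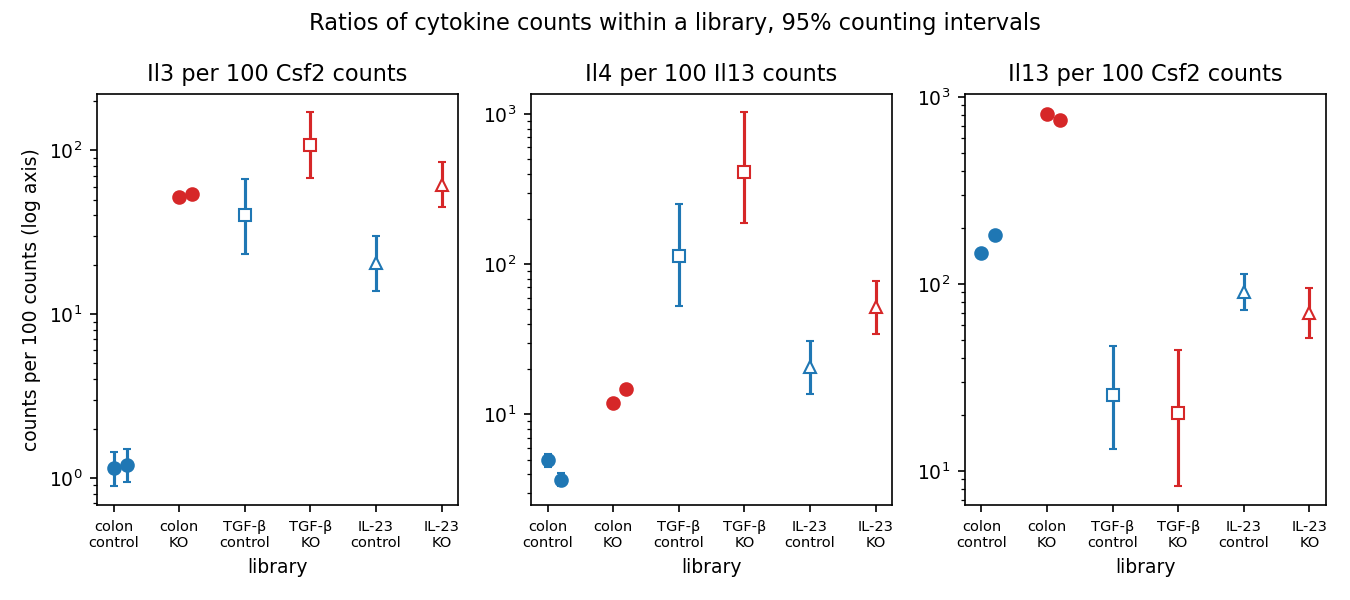
Counts of Il3 per 100 Csf2 counts, of Il4 per 100 Il13 counts and of Il13 per 100 Csf2 counts in each library, on log axes, with 95% counting intervals; circles are colon, squares the TGF-β mix, triangles the IL-23 mix, blue control and red knockout. Il3 relative to Csf2 is higher in the knockout libraries of the colon (52.2 and 54.1 against 1.14 and 1.20). It is also higher in the single knockout library of each mix, where the intervals leave out spread between libraries. Il13 relative to Csf2 is higher in the knockout libraries of the colon (806 and 750 against 146 and 183) and has overlapping intervals in culture.

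The cytokine mix changed most genes in culture, and the members passed at about the share of all genes. Of the 4 cytokine genes tested, Il13, Csf2 and Il3 were higher in the IL-23 mix than in the TGF-β mix, and of 3 flanking genes tested Kif3a was higher and Rad50 lower, where 69.8% of 13983 genes passed (35.8% higher, 34% lower). The log2 fold change was 3.43 ± 0.26 for Il13 (edgeR adjusted p = 7.1e-06), 1.62 ± 0.19 for Csf2 (8.2e-05), 0.74 ± 0.25 for Il3 (0.027) and 0.63 ± 0.30 for Il4 (0.094, which did not pass). For Il13 the ratio was 11.4 (6.57 to 21.3) in control and 9.79 (4.73 to 23.5) in knockout cells, and for Csf2 3.19 (2.34 to 4.41) and 2.87 (1.97 to 4.25). The Il3 call was lost with DESeq2 (adjusted p = 0.32), without a filter on low counts (0.052) and without either knockout library (0.11 for each).

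Kif3a stood out among the flanking genes, with 142 and 121 counts in the TGF-β mix (8.29 and 7.04 CPM) and 588 and 628 in the IL-23 mix (35.4 and 37.1 CPM), in control and knockout libraries respectively. Its log2 fold change was 2.26 ± 0.12 (edgeR adjusted p = 9.1e-07), larger than that of Csf2 or Il3. Rad50 had 833 and 827 counts in the TGF-β mix (48.6 and 48.1 CPM) and 525 and 578 in the other (31.6 and 34.2 CPM), a fall by 0.54 ± 0.09 on the log2 scale (edgeR adjusted p = 0.00064). Slc22a5 had 157 and 166 against 178 and 184 counts (0.22 ± 0.13, edgeR adjusted p = 0.17), and Slc22a4 had at most 3 counts. In culture Rad50 was thus above its colon level of 11.6 to 20.9 CPM in each library, the reverse of the order of the cytokine genes, and Kif3a was so in the IL-23 mix.

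Of the listed neighbours, 10 were tested for the mix, 5 were higher, 1 lower and 4 did not pass (median 0.51). Over all genes tested for the mix, 35.8% were higher and 34% lower, which is the background for each list in this paragraph. P4ha2, the gene of a collagen prolyl hydroxylase subunit, went from 85 and 69 to 1286 and 1280 counts (4.11 ± 0.12, edgeR adjusted p = 6e-08) and Acsl6, the gene of an acyl-CoA synthetase next to Il3, from 6 and 5 to 95 and 81 counts (4.03 ± 0.31, 8.4e-06). These were named after their values were seen. Among the receptors, 5 of 5 tested were higher (median 0.88), with Il4ra at 5890 and 5942 counts in the TGF-β mix and 10134 and 10799 in the other (0.88 ± 0.07, edgeR adjusted p = 7.2e-06) and Csf2ra at 0.46 ± 0.12 (0.0079). Of 29 transcription factor genes tested, 7 were higher and 15 lower (median -0.20); Gata3 did not pass (0.08 ± 0.12, edgeR adjusted p = 0.55), while Irf4 fell by 1.01 ± 0.07 and Batf by 0.43 ± 0.07 on the log2 scale.

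The genotype effect in the colon was set against that in culture in a fit of all 8 libraries. It was larger in the colon for Il4, Il13, Il3, Rad50 and Kif3a, where 17.3% of 14886 genes passed (7.73% higher, 9.57% lower). The difference of the log2 fold changes was 4.35 ± 0.27 for Il3 (edgeR adjusted p = 4.8e-07), 3.06 ± 0.36 for Il4 (0.00013) and 3.01 ± 0.20 for Il13 (1.1e-06), whose effect had opposite signs in colon (2.02) and culture (-0.98). Csf2 differed by 0.37 ± 0.17, which did not pass (edgeR adjusted p = 0.17), and Il5, with at most 1 count in culture, by 2.92 ± 1.95 (0.38). Rad50 differed by 0.61 ± 0.16 and Kif3a by 0.80 ± 0.21 (edgeR adjusted p = 0.018 for both), and these calls were lost in 7 and 4 of 11 alternatives. With library totals the share of higher calls in this comparison went from 44.7% to 80%, and Csf2 passed (0.56, adjusted p = 0.037). Arm, cell source, culture time and cytokine surroundings differ together between the colon and the cultures and cannot be told apart.

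**Figure D4:**
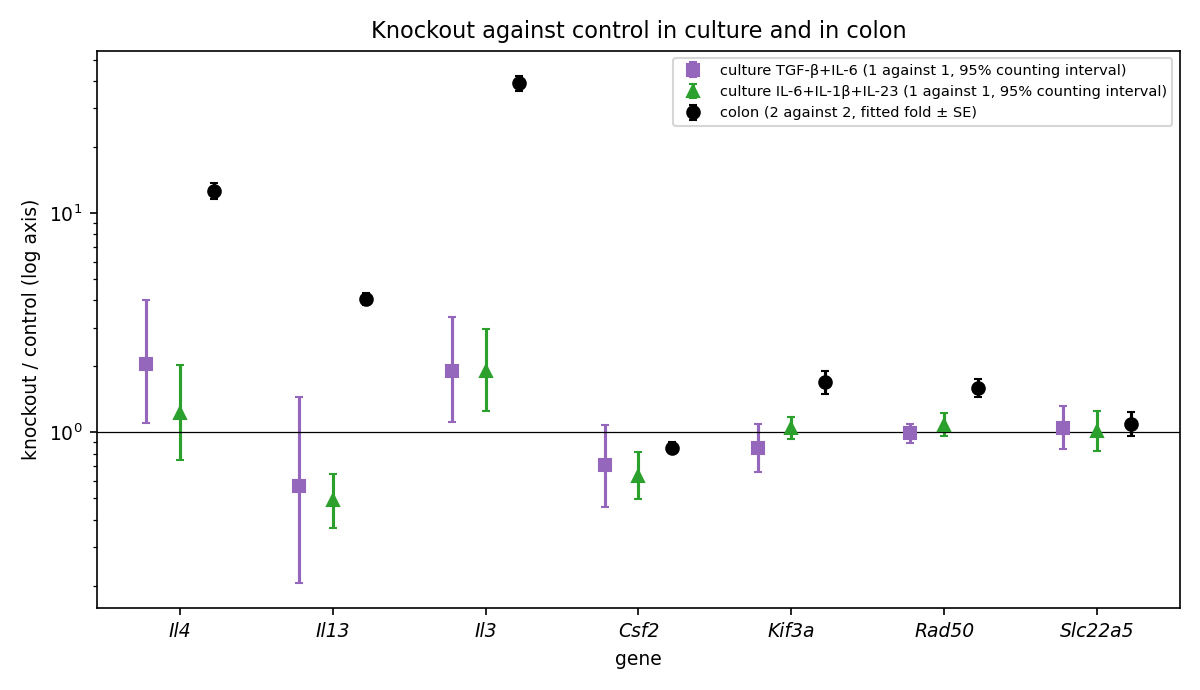
Knockout level over control level for the 7 members countable in culture, on a log axis; squares and triangles are the 2 culture mixes (1 library against 1, bars are 95% counting intervals) and circles the colon (2 against 2, fitted fold with 1 SE). Il3 lies above 1 in all, at 1.90 and 1.91 in culture and 38.9 in the colon, Il13 lies below 1 in culture (0.569 and 0.491) and at 4.06 in the colon, and Csf2 lies below 1 in all (0.707 and 0.635 in culture), though its sign in the colon turned with T cell marker scaling. Rad50 lies close to 1 in culture (0.989 and 1.08) and above it in the colon (1.59), and Slc22a5 lies close to 1 in all.

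Across the 8 libraries the Pearson r of log2 CPM between cytokine genes ran from 0.708 (Il3 with Csf2) to 0.984 (Il13 with Csf2). All such values share the gap between colon and culture libraries, and they are a description with n = 8. Among 9859 genes at 5 CPM or more in at least 2 libraries, those most like Il3 were Gnai1 (r = 0.989), Phtf1 (0.988) and an immunoglobulin κ variable segment (0.987), and 41 genes had r over 0.95. For Csf2 that number was 1059, for Il13 614, for Il5 480 and for Il4 197, so the pattern of Il3 was shared by the fewest genes. Most like Csf2 were Dkkl1 (0.999), Armc7 (0.998) and Il18rap (0.998), the gene of an IL-18 receptor subunit, with 356 and 350 CPM in control and 378 and 376 CPM in knockout colon libraries and 4.48 to 12.5 CPM in culture. Most like Il5 were Il6, Igkv17-121 and Igkv10-94 (0.999 each), most like Il13 were Col1a1, Mmp14 (0.999 each) and Aim2 (0.997), and most like Il4 were Igkv16-104 (0.995), Ighv14-3 and Igkv8-21 (0.994 each). Pearson r ignores the size of a change. In the colon the log2 fold change was 0.27 for Phtf1 and 4.67 for Gnai1, against 5.28 for Il3. It was 1.1 for Col1a1, 0.84 for Mmp14 and 0.55 for Aim2, against 2.02 for Il13. Immunoglobulin variable segments belong to B cells, and their reads can be split between near-identical copies. Col1a1 is a collagen gene of fibroblasts, so several of the genes named here are markers of host cells, whose part in the pattern was not tested. Gnai1, Mmp14 and the named immunoglobulin segments reached 5 CPM only in the 2 knockout colon libraries. The filter thus admitted them through the libraries where Il4, Il5, Il13 and Il3 are highest. Their high r follows in part from that choice and is no support for a shared pattern.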

How the data were processed

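The files deposited by the authors hold 1 whole-number read count for each gene and library, unnormalized, per the file headers. Per the submitters' processing notes, the authors used Trim Galore, Bowtie2, featureCounts, edgeR and DESeq2 with build mm10. Versions, roles, read type and strand setting were not stated. The colitis and culture files were joined by gene symbol for 53657 genes, and symbols turned into dates (at most 0.269% of a library) were left out. Replicate colon libraries differed by more than counting error (chi-square per gene of 6.85 and 5.03) and were kept as 2.

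Counts were analysed in R 4.3.3 with edgeR 4.0.16 (filterByExpr, TMM scaling, quasi-likelihood F-test, Benjamini-Hochberg adjustment over all genes tested, threshold 0.05). Colitis was fitted alone, with 2 residual degrees of freedom. Genotype and mix in culture were fitted additively over 4 libraries with 1 residual degree of freedom, so the mixes serve as repeats for genotype. The effect of genotype in colitis minus culture used all 8 libraries with 3, and the genotype effect by mix used all 8 with 2, whose spread comes from the colon replicates. SE is the log2 fold change divided by the root of F. Within a mix, log2 ratios used a prior count of 2. Levels are CPM scaled over the 8 libraries, and exon lengths are GENCODE M21 union exons. Poisson and ratio intervals at 95% cover counting error only. The scripts were tested on simulated data with known changes. Alternatives were library totals, DESeq2 1.42.0, no filter, a replicate block, T cell marker scaling, a prior count of 0.5 and, for culture, a fit of all 8 libraries. Each library was also left out, with culture libraries taken from the fit of all 8.

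All 9 members are given. Of each other list, up to 4 members with the smallest p in the colon are named, and any other name was chosen after its values were seen. The members and lists were chosen with earlier results of these data known, and are not independent support for a pattern. Limma 3.58.1 served edgeR only.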

Additional observations from a re-analysis of the deposited data

Results flagged for a closer look

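The genotype effect differed between colon and culture by a test of the difference itself in 5 members. The difference of the log2 fold changes, colon minus culture, was 4.35 for Il3, 3.06 for Il4, 3.01 for Il13, 0.80 for Kif3a and 0.61 for Rad50 (edgeR quasi-likelihood test over all 8 libraries). For Il3 and Il4 the values within each culture mix had the same sign as in the colon, and for Il13 the opposite sign. For Kif3a and Rad50 the values in culture lay near 0. The background share of genes passing this test was 17.3%, and the culture side rests on 1 library per genotype and mix.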

How the results depend on the processing

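In the colon, the calls and directions of Il4, Il5, Il13, Il3, Rad50 and Kif3a were the same under all 9 alternatives, with log2 fold changes of 3.51 to 3.98, 2.81 to 3.23, 1.93 to 2.34, 5.21 to 5.60, 0.54 to 0.98 and 0.65 to 1.07. Csf2 turned to 0.09 with T cell marker scaling, and Slc22a5 ran from -0.02 (without knockout replicate 1) to 0.23 with 1 library left out and reached 0.44 with T cell marker scaling. With the replicate number as a block, 6230 genes were called in place of 5173, and the calls of all 9 members were as before. Deviations of same-numbered libraries correlated at 0.153 over 2 pairs, the libraries share only a number, and the block changed no member's call. Where a culture library was left out, the fit held all remaining libraries, colon ones included, unlike the main culture fit. All of its spread then came from the colon replicates, and each culture effect rested on 1 library against 1. In culture, genes called for genotype were 4, but 9 with library totals, 7 with DESeq2, 0 without a filter, 15 in the fit of all 8 libraries and 7 to 18 with 1 library left out, and no member was called under any of these. With 1 library left out, Kif3a ran from -0.24 to 0.07 (without either library of the TGF-β mix) and Rad50 from -0.02 (without either library of the IL-23 mix) to 0.12. For the genotype effect by mix, the 5 genes called became 23 without a filter and 8 to 28 with 1 library left out. In colon minus culture, the 2575 genes called became 743 to 2452 with 1 library left out, and the 2 flanking genes called became 0 with DESeq2 and 0 to 2 with 1 library left out. Slc22a5 ran there from -0.06 (without knockout colon replicate 1) and -0.04 (without control colon replicate 1) to 0.19 with 1 library left out and 0.26 with library totals. Il4, Il13 and Il3 passed in that comparison under all 11 alternatives. DESeq2 called 3658 genes in the colon. The causes of these changes were not tested. Depth limits Il5 and Slc22a4 in culture, at 0 to 3 counts, where no genotype difference was detectable at this depth. The 2 libraries per colon group, the single culture libraries and the unstated origin of the replicates limit all p-values.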
